A study of Mus musculus with 6 samples.

Results

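The DNA repair and damage response genes followed here are a list of 50 genes that covers the main repair pathways of the cell. For each gene, the value came from 1 probe set, a group of short DNA probes on an Affymetrix mouse expression array, chosen as the one with the highest mean over all 6 arrays among the probe sets assigned to that gene alone. Of the 50 genes, 48 had such a probe set, out of 18193 genes in all, and all 48 passed the filter on low intensity. This filter used the mean over all 6 arrays. Trp53 and Dclre1c were not analysed here. Livers came from 3 GHRH-KO mice, which carry a targeted disruption of the gene for growth hormone-releasing hormone in the whole body, and from 3 wild-type control littermates. All were males on a mixed C57BL6 and 129SV background, 10 months of age according to the methods, fasted for 6 to 8 h and killed by CO2 inhalation. Each array measured the liver RNA of 1 mouse, and the control mice are replicates 1 to 3 and the GHRH-KO mice replicates 4 to 6. An SD is the spread between mice together with their arrays. An SE or p is from a linear model (limma) whose moderated variance also draws on the other probe sets tested, unless another fit is named. The values are log2 intensities after robust multichip average normalization (RMA), and every level and every difference below is on that log2 scale unless a fold is given.

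DNA is damaged continually by oxidation, hydrolysis, replication errors and breakage, and separate pathways repair each kind of lesion. Base excision repair replaces single damaged bases, nucleotide excision repair removes bulky lesions, mismatch repair corrects replication errors, and homologous recombination and non-homologous end joining mend double-strand breaks. The kinases ATM and ATR signal the damage to checkpoint kinases and to p53. Most hepatocytes of an adult liver are not dividing, and many repair genes, above all those of homologous recombination, are expressed mainly in dividing cells.

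A gene was called when its false discovery rate in the limma fit, adjusted over all probe sets tested, was under 0.05 and its fold change was over 1.5 or under 0.67. Of the 48 genes, 4 were called higher in GHRH-KO liver, namely Blm, Dclre1a, Prpf19 and Morf4l2, against 0.786% of the 12469 genes tested. The paper names these 4, from the same arrays, among its increased genes linked to the cellular response to stress. The members were chosen with such earlier results known, so this count is not independent evidence of an excess over all genes. The count called lower was 0, against 0.97% of all genes, and 7 members were lower at an unadjusted p under 0.05, against 10.1% of all genes. The median log2 fold change of the 48 genes was 0.05, next to 0.0033 for all genes, with 28 positive and 20 negative. The differences ran from -0.77 in Fen1 to 1.36 in Dclre1a, and in 37 of the 48 genes they were under 0.5 in size, which was 77.1% of the members and 86.3% of all genes tested. With the probe set of lowest p for each gene the counts were 4 higher (1.03% of all genes) and 0 lower (1.23%). With arrays weighted by their precision they were 5 higher (1.99%) and 2 lower (2.31%). In that fit GHRH-KO replicate 6 had a weight of 3.35, against 0.975 for replicate 4 and 0.399 for replicate 5, so its GHRH-KO mean leans on 1 mouse. With least squares without moderated variances the counts were 0 higher (0.0321%) and 0 lower (0.0962%). These are measurements of bulk liver, where fewer cells of a type and less RNA per cell cannot be told apart.

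**Figure D1:**
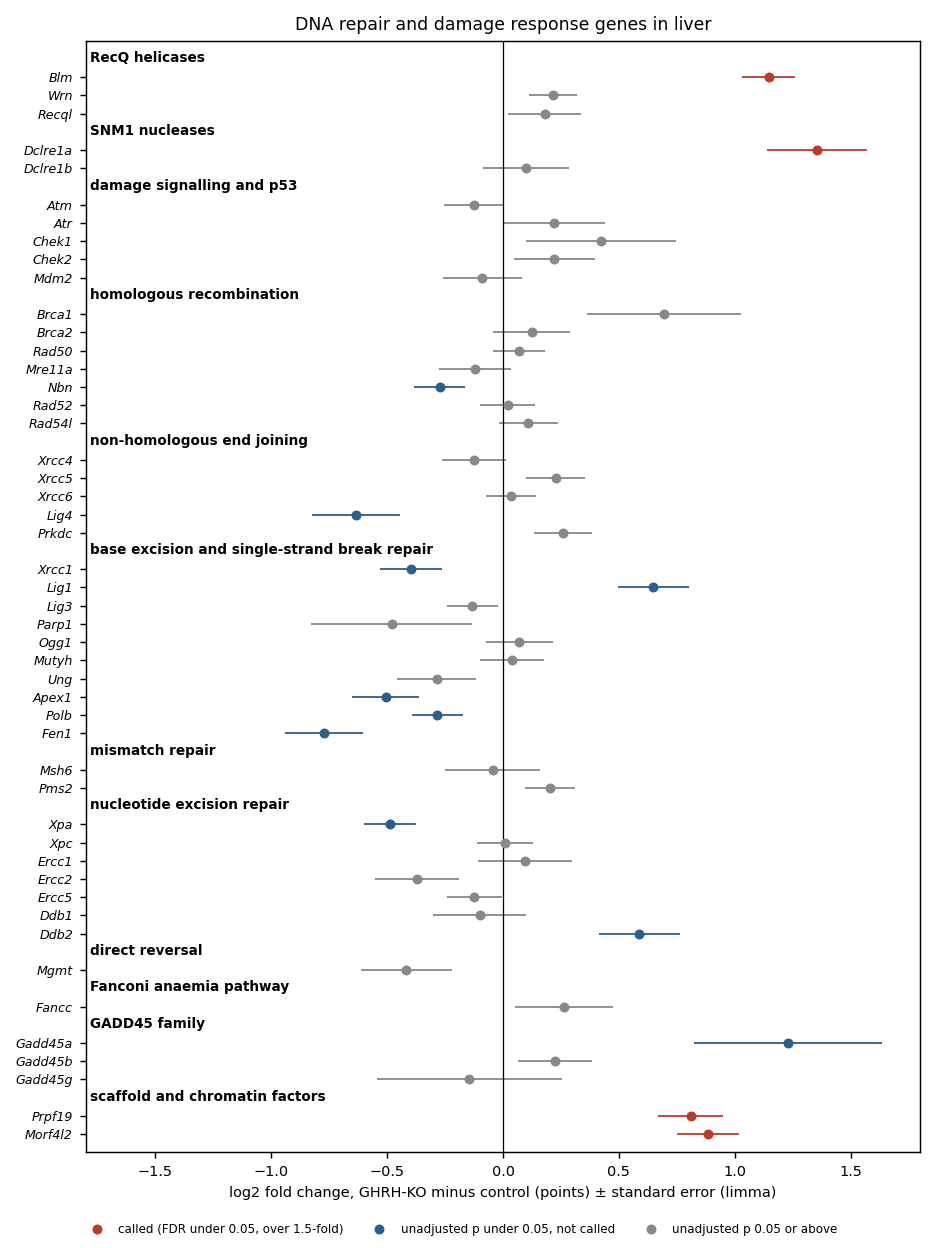
Log2 fold change, GHRH-KO minus control (horizontal axis), of the 48 repair genes grouped by role, each point with its limma standard error (3 mice per genotype). The 4 called genes lie between 0.81 and 1.36, and the base excision group holds the lowest value, -0.77 in Fen1.

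The genotypes and the tissue were checked on other genes. Ghrh itself was listed between 4.40 and 4.75 in the 6 arrays, with 39.3% to 46.7% of all probe sets below it, so that it checks no label in liver. Igf1, the growth factor that the liver secretes in response to growth hormone, fell by 5.58 in GHRH-KO liver (adjusted p = 5.56e-06). Of the other genes of the growth hormone axis, the receptor Ghr fell by 1.20 (adjusted p = 0.0121), Igfals, which stabilises circulating IGF1, fell by 4.01 (adjusted p = 0.00341), and the binding protein Igfbp1 rose by 4.55 (adjusted p = 0.00829). Hepatocyte markers averaged 12.8 to 13.1 in control and 12.9 to 13.1 in GHRH-KO arrays over 9 of 10 listed genes. The array of GHRH-KO replicate 5 stood apart in the 3′ to 5′ difference of the control transcript Gapdh, which was 5.27 there and between 0.149 and 0.675 in the other arrays. The same difference for Actb was 2.51 there and between 0.878 and 1.31 elsewhere, so that the members whose difference changed sign or moved by over 0.2 without this array are given both ways. Without it, 6 of the 48 member differences moved by over 0.2, 7 changed sign, and 1 member, Blm, was called higher (0.569% of all genes) and 0 lower (0.762%).

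**Figure D2:**
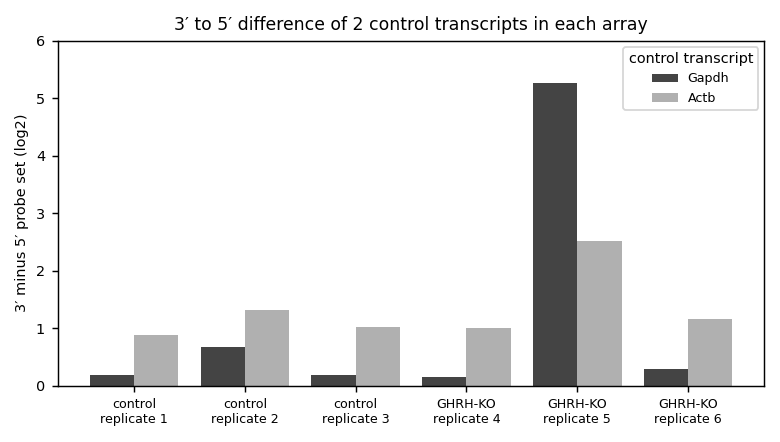
Difference between the 3′ and the 5′ probe set (log2, vertical axis) of the control transcripts Gapdh and Actb in each of the 6 arrays. GHRH-KO replicate 5 has the tallest bar for both, 5.27 for Gapdh and 2.51 for Actb.

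The start regions of Blm and Dclre1a are shown because these are the called members whose main probe set is not marked as able to match other transcripts. They are RefSeq promoter windows of GRCm38.p6, read 5′ to 3′ in the sense of the gene and cut at the first base of the gene model, from chr7:80535149-80535248 on the minus strand for Blm and from chr19:56548285-56548472 on the minus strand for Dclre1a. Capitals mark the CCAAT box (CCAAT) and the GC box (GGGCGG) in Blm and the cell cycle homology region (CHR, TTTGAA) in Dclre1a, on either strand.
Blm: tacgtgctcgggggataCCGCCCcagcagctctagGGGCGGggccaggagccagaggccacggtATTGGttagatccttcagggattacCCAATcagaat
Dclre1a: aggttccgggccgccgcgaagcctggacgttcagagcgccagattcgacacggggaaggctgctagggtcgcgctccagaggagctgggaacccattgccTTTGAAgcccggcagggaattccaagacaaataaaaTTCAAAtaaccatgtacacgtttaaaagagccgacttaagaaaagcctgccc

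In the windows of 250 bases before the start, the CCAAT box was present in 32 of the 55 windows of 43 members, or 58.2%, and in 33.8% of all 32851 mouse windows. The GC box was present in 31 of the 55 windows, or 56.4%, and in 32.7% of all windows. The CHR was present in 4 windows, or 7.27%, against 16% of all windows. The letters TTTCCCGC or TTTGGCGC, which E2F proteins bind, were present in 3 windows, or 5.45%, against 1.3% of all, and the E-box CACGTG in 8 windows, or 14.5%, against 6.02% of all. Both strands were searched, and no motif holds another, although a GC box and the first E2F letters can share bases. A match describes the letters only.

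The RecQ helicases unwind DNA structures that arise at stalled forks and during recombination. Blm, the helicase that dissolves double Holliday junctions, read 4.63, 4.61 and 4.63 in the control mice and 5.77, 5.89 and 5.63 in the GHRH-KO mice. All GHRH-KO values were above all control values, and the controls differed by less than the spread of the GHRH-KO mice. The log2 difference was 1.15 (SE 0.114, adjusted p = 0.00617), with means of 4.62 ± 0.0120 in control and 5.77 ± 0.131 in GHRH-KO liver (SD, n = 3). The control mean was below 4.75, the highest Ghrh reading of any array, which is called background below, so against that level the transcript was at least 2.03-fold higher in GHRH-KO liver. Blm had a single tested probe set and kept its call with any 1 array left out, with differences of 1.08 to 1.21. Its mean over the 6 arrays was 5.19, and its control mean alone would not have passed the intensity filter. Blm thus entered the test through its GHRH-KO values. With no intensity filter, the count of members called higher was 4, the same as in the main fit. Wrn, the helicase lost in Werner syndrome, read 5.96, 6.01 and 6.04 in control and 6.15, 6.25 and 6.26 in GHRH-KO liver. Its groups did not overlap either, but its log2 difference of 0.22 was not called (adjusted p = 0.324). Recql, another helicase of the family, differed by 0.18 (adjusted p = 0.572).

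The SNM1 nucleases trim DNA ends, and Dclre1a (SNM1A) acts in the repair of crosslinks between the strands. Dclre1a read 8.32, 7.94 and 8.60 in control and 9.69, 9.92 and 9.32 in GHRH-KO liver, the widest called difference of the list at 1.36 (SE 0.216, adjusted p = 0.0335), or 2.56-fold. The groups were separate by more than the range of either. Its second probe set, 1442329_at, read 5.04, 5.31 and 5.37 in control and 6.29, 5.81 and 5.68 in GHRH-KO liver, a difference of 0.69 that was not called (adjusted p = 0.131), and 1432097_a_at differed by 0.02. With any 1 of the 6 arrays left out, the difference at the first probe set stayed between 1.18 and 1.52 and its adjusted p rose to between 0.0577 and 0.103, so the call rests on all 6 arrays. Dclre1b (Apollo), which protects chromosome ends, differed by 0.10 with all arrays and by -0.06 without GHRH-KO replicate 5 (adjusted p = 0.801 with all arrays).

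Prpf19 and Morf4l2 were called at the probe set with the highest mean, and other probe sets of both genes disagreed with it. Prpf19 is a ubiquitin ligase of the spliceosome that is also recruited to single-stranded DNA at damaged sites. Its probe set 1456531_x_at read 10.60, 10.19 and 10.38 in control and 11.22, 11.08 and 11.30 in GHRH-KO liver, a difference of 0.81 (SE 0.141, adjusted p = 0.0465), with no overlap. The probe set 1449635_at read 10.73, 10.84 and 10.56 in control and 10.20, 10.05 and 10.08 in GHRH-KO liver, with no overlap in the opposite order and a difference of -0.60 (adjusted p = 0.0708). The probe set 1419839_x_at gave -0.55 (adjusted p = 0.0821). The fourth, 1460633_at, gave -0.56 (adjusted p = 0.377) with all arrays and -0.19 without GHRH-KO replicate 5, whose value of 8.01 was the lowest. Within each array, 1456531_x_at minus 1449635_at averaged -0.32 ± 0.286 in control and 1.09 ± 0.108 in GHRH-KO liver (SD, n = 3); this pair was chosen for its opposite directions and was not tested. The call for Prpf19 holds for 1 of its 4 tested probe sets, and the transcript as a whole has no single direction in these data.

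Morf4l2, a subunit of the TIP60 histone acetyltransferase complex that opens chromatin at breaks, was higher at both of its called probe sets. The probe set 1456743_x_at read 10.83, 10.73 and 11.11 in control and 11.70, 11.81 and 11.82 in GHRH-KO liver, a difference of 0.89 (SE 0.133, adjusted p = 0.0282). The probe set 1439413_x_at read 10.58, 10.56 and 10.83 in control and 11.48, 11.63 and 11.60 in GHRH-KO liver, a difference of 0.91 (adjusted p = 0.0213). The groups were separate at both. At 1415778_at the values were 11.04, 10.93 and 11.27 in control and 11.06, 11.22 and 11.10 in GHRH-KO liver, which overlapped, and the difference was 0.05 (adjusted p = 0.870). The fourth probe set, 1439432_x_at, differed by 0.28 (adjusted p = 0.347). The ending _x_at marks probe sets with probes that can also match other transcripts, and the probes themselves were not examined here. With probe sets of the endings _x_at, _s_at and _a_at left out, Prpf19 turned to -0.60 and Morf4l2 to 0.05, and the count of members called higher was 2.

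**Figure D3:**
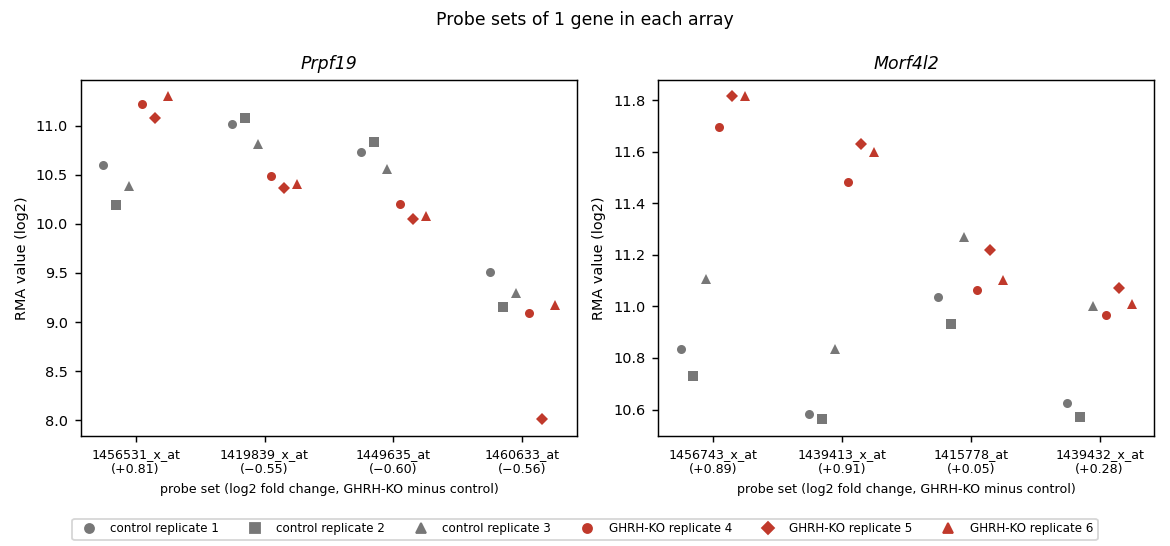
RMA values (log2, vertical axis) of the 4 tested probe sets of Prpf19 and of Morf4l2 in each array, with the log2 fold change of each under its name. For Prpf19 the first probe set is higher in GHRH-KO liver (0.81) and the other 3 have negative differences (-0.60 to -0.55), and for Morf4l2 the first and second are higher (0.89 and 0.91) and 1415778_at is at 0.05.

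Base excision and single-strand break repair was the largest group, with 10 genes, of which 7 had a negative difference. No member was called in either direction, and at an unadjusted p under 0.05 there were 4 genes on the lower side (10.1% of all genes) and 1 on the higher side (9.15% of all genes). In 5 of the 10 genes every GHRH-KO value lay below every control value, against 15.7% of all genes, and the median log2 difference was -0.29. Fen1, the flap endonuclease of long-patch repair, read 9.92, 10.17 and 9.75 in control and 8.98, 9.43 and 9.11 in GHRH-KO liver. Its difference of -0.77 (SE 0.167, adjusted p = 0.0814) was the lowest of the list and its groups did not overlap, while its second probe set gave -0.26 (adjusted p = 0.352). Apex1, the endonuclease that cuts at sites without a base, read 10.08, 10.44 and 10.22 in control and 9.57, 9.89 and 9.75 in GHRH-KO liver, a difference of -0.51 (adjusted p = 0.144). All 3 of its probe sets lay between -0.66 and -0.51, each without overlap, and none was called.

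Polb, the polymerase that fills the repaired gap, read 9.37, 9.25 and 9.27 in control and 8.95, 9.11 and 8.97 in GHRH-KO liver, a difference of -0.28 (adjusted p = 0.242). Its 4 probe sets were all negative, from -0.96 at 1439840_at (adjusted p = 0.0576) to -0.14 at 1434229_a_at, where the groups overlapped. Xrcc1, the scaffold that brings the ligase to a nick, read 7.63, 7.86 and 7.77 in control and 7.16, 7.48 and 7.42 in GHRH-KO liver, a difference of -0.40 (adjusted p = 0.189). Its groups did not overlap. Lig3, the ligase that Xrcc1 binds, differed by -0.13 (adjusted p = 0.549), and its 4 probe sets were all negative, down to -0.57 at 1425865_a_at (adjusted p = 0.108).

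Lig1, the ligase that joins Okazaki fragments as well as long repair patches, lay on the other side, with 6.04, 5.88 and 5.68 in control and 6.30, 6.69 and 6.55 in GHRH-KO liver. The groups were separate and the difference was 0.65 (SE 0.153, adjusted p = 0.0968). Parp1, which senses strand breaks, read 8.81, 8.74 and 8.74 in control and 8.60, 7.41 and 8.84 in GHRH-KO liver. GHRH-KO replicate 5 was the lowest, and the difference of -0.48 (SE 0.346, adjusted p = 0.490) was -0.04 without that array. Of the glycosylases that remove damaged bases, Ung differed by -0.29 (adjusted p = 0.404), Ogg1 by 0.07 and Mutyh by 0.04 (-0.06 without GHRH-KO replicate 5).

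**Figure D4:**
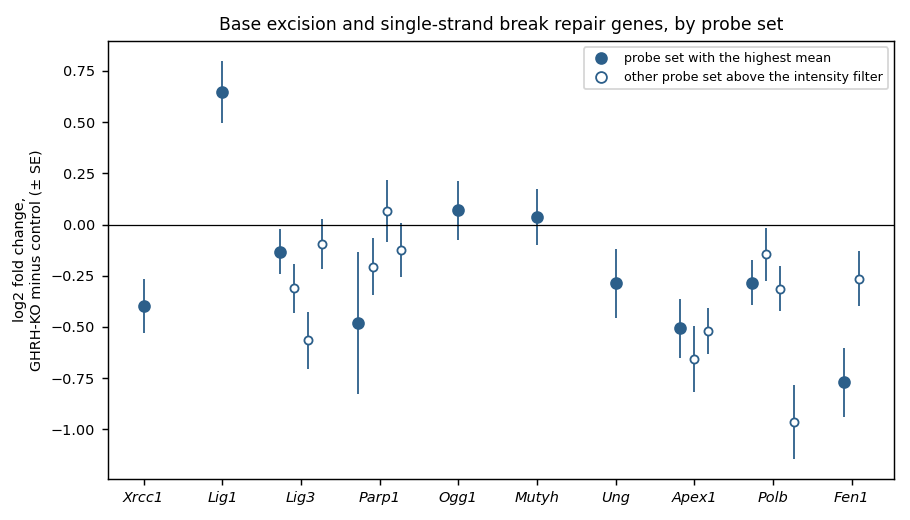
Log2 fold change, GHRH-KO minus control, with its standard error (vertical axis) of every tested probe set of the 10 base excision and single-strand break repair genes. All probe sets of Apex1, Polb, Fen1 and Lig3 are below 0, and the single probe set of Lig1 is at 0.65.

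No gene was called among those sorted here under homologous recombination or non-homologous end joining, with Blm counted among the RecQ helicases. Of all genes tested, 0.786% were called higher and 0.97% lower, so the absence of calls in groups this small does not set them apart. Among the 7 genes of homologous recombination the median difference was 0.07 and the only unadjusted p under 0.05 was that of Nbn, part of the complex that first binds broken ends. Nbn read 7.69, 7.53 and 7.72 in control and 7.37, 7.42 and 7.32 in GHRH-KO liver, separate groups with a difference of -0.27 (adjusted p = 0.259). Its partners Rad50 and Mre11a differed by 0.07 and -0.12. Brca1, which promotes resection of the ends, read 5.12, 4.46 and 4.09 in control and 4.72, 5.75 and 5.28 in GHRH-KO liver, with overlap and a difference of 0.69 (adjusted p = 0.320). Without GHRH-KO replicate 5 the Brca1 difference was 0.44. The Brca1 control mean was at background and alone would not have passed the intensity filter. Brca2, which loads the recombinase, differed by 0.12 (-0.01 without that array), Rad52 by 0.02 and Rad54l by 0.11.

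Of the 5 genes of non-homologous end joining, Lig4, the ligase that seals the break, was the one with an unadjusted p under 0.05. It read 7.25, 6.76 and 7.27 in control and 6.26, 6.72 and 6.40 in GHRH-KO liver, where the lowest control value exceeded the highest GHRH-KO value by a narrow margin, and differed by -0.63 (SE 0.190, adjusted p = 0.157). Prkdc, the catalytic subunit of DNA-dependent protein kinase, read 6.48, 6.49 and 6.55 in control and 6.57, 6.92 and 6.80 in GHRH-KO liver, a difference of 0.26 (adjusted p = 0.3296) and no overlap by a narrow margin. The end-binding Ku subunits Xrcc6 and Xrcc5 differed by 0.03 and 0.23, and Xrcc4, the partner of Lig4, by -0.12 (adjusted p = 0.656). The other tested probe set of Xrcc4, 1424602_s_at, read 6.67, 6.19 and 6.53 in control and 6.79, 6.82 and 6.76 in GHRH-KO liver, with separate groups in the opposite order and a difference of 0.32 (adjusted p = 0.297).

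Of the 7 genes of nucleotide excision repair, Xpa and Ddb2 had separate groups in opposite directions and were not called. Xpa, which verifies the lesion, read 7.96, 7.76 and 7.80 in control and 7.40, 7.31 and 7.35 in GHRH-KO liver, a difference of -0.49 (SE 0.111, adjusted p = 0.0898) with separate groups. A second, dimmer probe set of Xpa gave 0.19. Ddb2, which finds ultraviolet damage in chromatin, read 6.34, 5.87 and 5.88 in control and 6.55, 6.46 and 6.84 in GHRH-KO liver, a difference of 0.59 (SE 0.175, adjusted p = 0.155). Its groups did not overlap, while at its second probe set, 1425706_a_at, they overlapped and the difference was 0.18 (adjusted p = 0.654). Its partner Ddb1 differed by -0.10 (0.08 without GHRH-KO replicate 5), the damage sensor Xpc by 0.01 (-0.04 without it), the helicase Ercc2 by -0.37 (adjusted p = 0.331), and the nucleases Ercc1 and Ercc5 by 0.10 and -0.12. The mismatch repair genes Msh6 and Pms2 differed by -0.04 and 0.20, and Pms2 had no overlap. Mgmt, which takes alkyl groups off guanine, read 8.52, 8.17 and 8.82 in control and 8.12, 7.85 and 8.30 in GHRH-KO liver, which overlapped, with a difference of -0.42 (adjusted p = 0.316). Fancc, of the Fanconi anaemia core complex, differed by 0.26 (adjusted p = 0.537).

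At the probe set with the highest mean, damage signalling showed no called gene and no unadjusted p under 0.05 among its 5 genes. Of all genes, 0.786% were called higher and 0.97% lower, and 9.15% and 10.1% had an unadjusted p under 0.05. A set of 5 genes is too small for these counts to tell it from all genes. The kinases Atm and Atr differed by -0.13 and 0.22, the checkpoint kinases Chek1 and Chek2 by 0.42 and 0.22, and Mdm2, the ligase that degrades p53, by -0.09. A second probe set of Atm, 1421205_at, read 7.70, 7.48 and 7.41 in control and 7.28, 6.71 and 7.22 in GHRH-KO liver, with separate groups and a difference of -0.46 (adjusted p = 0.245) that was -0.28 without GHRH-KO replicate 5. Chek1 read 5.14, 4.93 and 4.91 in control and 4.78, 6.17 and 5.30 in GHRH-KO liver, so that GHRH-KO replicate 5 was the highest and its difference was 0.04 without it. Atr likewise differed by -0.02 without that array.

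The GADD45 proteins are small stress-induced factors that bind cell cycle and repair proteins. Gadd45a read 6.63, 6.05 and 6.70 in control and 8.58, 6.92 and 7.58 in GHRH-KO liver. All GHRH-KO values were above all controls, but they spread widely (7.69 ± 0.836 against 6.46 ± 0.360, SD, n = 3), and the difference of 1.23 was not called (SE 0.405, adjusted p = 0.184). It was 1.62 without GHRH-KO replicate 5 (adjusted p = 0.0951) and 0.79 without GHRH-KO replicate 4 (adjusted p = 0.229). Gadd45b differed by 0.22 (adjusted p = 0.485). Gadd45g read 6.32, 5.85 and 6.05 in control and 6.93, 5.50 and 5.35 in GHRH-KO liver, with values on both sides of the controls and a difference of -0.15 (adjusted p = 0.876) that was 0.07 without GHRH-KO replicate 5.

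**Figure D5:**
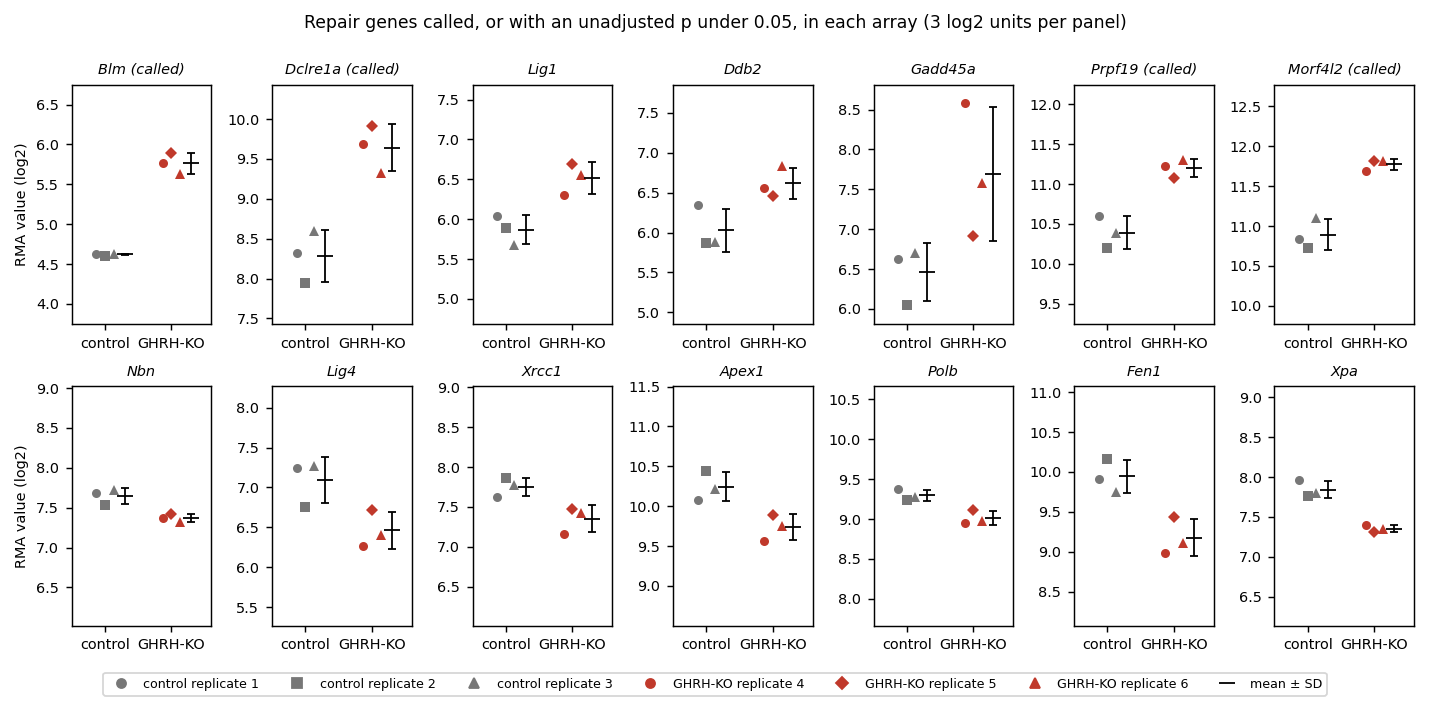
RMA values (log2, vertical axis, 3 units in every panel) of the 14 repair genes that were called or had an unadjusted p under 0.05, shown for every mouse (3 per genotype) beside the group mean ± SD. In all 14 the groups are separate, 7 with GHRH-KO higher and 7 with GHRH-KO lower, and Gadd45a has the widest spread in GHRH-KO liver (SD 0.836).

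Across the 48 genes, the groups did not overlap in 10 with GHRH-KO higher (12.7% of all genes) and in 8 with GHRH-KO lower (15.7% of all genes). These were 20.8% and 16.7% of the members. An unadjusted p under 0.05 was found for 7 genes in each direction, or 14.6% of the members, against 9.15% of all genes on the higher side and 10.1% on the lower side. Both counts on the higher side hold Blm, Dclre1a, Prpf19 and Morf4l2, and Blm entered the test through its GHRH-KO values. The list was chosen with earlier results of these data known, so these counts are not independent evidence of an excess over all genes. Of the 23 genes with several tested probe sets, 17 had differences of the same sign at all of them, and in 7 the probe sets ranged over more than 0.5.

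Other genes of the pathways were read from lists of further repair genes, p53 targets and genes of dividing cells. Of 70 further repair genes tested, 0 were called in either direction at the probe set with the highest mean. Of all genes, 0.786% were called higher and 0.97% lower. The median of the 70 was 0.01. An unadjusted p under 0.05 was found for 4 on the higher side (9.15% of all genes) and 14 on the lower side (10.1% of all genes). The groups did not overlap in 6 with GHRH-KO higher (12.7% of all genes) and in 17 with GHRH-KO lower (15.7% of all genes). Ercc8, which directs repair of transcribed strands, was called at its second probe set, where it read 5.84, 5.72 and 5.83 in control and 4.68, 4.55 and 4.87 in GHRH-KO liver (adjusted p = 0.0113). The GHRH-KO mean was at background, and against that level the transcript was at least 2.07-fold lower. At its first probe set it differed by -0.26 (adjusted p = 0.310). Of 20 p53 target genes tested, 0 were called, and an unadjusted p under 0.05 was found for 2 on the higher and 2 on the lower side (9.15% and 10.1% of all genes). Of the 20, 16 had positive differences (50.5% of all genes), and the differences ran from -0.72 to 0.71 with a median of 0.21. Cdkn1a, the cell cycle inhibitor, was at 0.23 (adjusted p = 0.684).

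Of 25 genes of dividing cells tested, 21 had positive differences (50.5% of all genes) with a median of 0.40. At an unadjusted p under 0.05, 7 were higher (9.15% of all genes), and 1, Mcm10, was called lower (0.97% of all genes). Among the 7, Mki67, Top2a and Ccnb2 had control means at background (4.55, 4.48 and 4.15). With those means alone they would not have passed the intensity filter, so they entered through their GHRH-KO values. A further 8 listed genes did not pass it. No conclusion on dividing cells is drawn from these counts. Mcm10, a replication initiation factor, read 9.95, 10.65 and 10.60 in control and 8.63, 8.76 and 9.14 in GHRH-KO liver and fell by 1.55 (adjusted p = 0.0263). The mean level of this list was 5.62 to 5.89 in control and 5.84 to 6.23 in GHRH-KO arrays, with GHRH-KO replicate 5 highest. By the mean over all 6 arrays, 9 of its 33 genes were at background, Ccnb2 among them and Mki67 and Top2a not. The part of this list in the differences of Blm, Lig1, Brca1 and Chek1 was not tested.

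Lymphocyte markers averaged 4.48 to 4.62 in control and 4.65 to 4.82 in GHRH-KO arrays, with 7 of 11 at background and 0 called at the probe set with the highest mean. Coro1a, an actin-binding protein of leukocytes, was called at its second probe set at a bound of at least 1.92-fold higher (adjusted p = 0.0246), its control mean being at background. At its first, brighter probe set the groups overlapped and the difference was 0.66 (adjusted p = 0.494). Neutrophil markers averaged 4.18 to 4.23 and 4.28 to 4.69, with 6 of 7 at background by the mean over all 6 arrays. The other, S100a9, was at background in its control mean (4.74). Kupffer cell markers spread over 7.65 to 9.02 and 7.57 to 9.01, stellate cell markers over 7.32 to 8.05 and 7.83 to 8.31, and endothelial markers over 7.15 to 7.56 and 7.32 to 7.42. Cholangiocyte markers averaged 4.84 to 5.57 and 4.92 to 5.07. The erythroid markers averaged 6.19 to 6.56 and 5.89 to 5.97, over 3 of 5 listed genes, 2 of them at background. Of these, Alas2, the haem synthesis enzyme of red cell precursors, fell by 1.36 (adjusted p = 0.0219). Hba-a1 and Slc4a1, both below the intensity filter, differed by -0.05 and 0.14, so the average rests on Alas2. The part of these cells in the repair gene values was not tested.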

How the data were processed

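Liver RNA of 3 control and 3 GHRH-KO male mice was hybridised to 1 Affymetrix mouse array each. Per the labels and the methods, the authors computed RMA values, and the deposited table holds these log2 values for 45101 probe sets, 64 of them array controls. The RMA implementation is not given in the sources used here. The detection calls with which the authors filtered probe sets were not used. Instead, 55.8% of the probe sets, those with the highest mean, were tested. The platform annotation assigned 34958 probe sets to 1 gene, 932 to several and 9211 to none, and 34754 matched a RefSeq gene. Each gene was represented by its probe set with the highest mean.

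The linear models and moderated variances of limma 3.58.1 (R 4.3.3) compared the genotypes, with Benjamini-Hochberg adjustment over all probe sets tested, after the functions were tested on simulated data. Genes with a false discovery rate under 0.05 and a fold over 1.5 or under 0.67 were called. Values in each array are given for members called at any probe set or with an unadjusted p under 0.05, and for a few further members as examples of a role. Of other lists, called genes and Ghrh are named, with Cdkn1a, Mki67, Top2a, Ccnb2, Hba-a1 and Slc4a1 chosen after their values were seen. The members and lists were chosen with earlier results of these data known. A probe set was at background where a group mean lay at or below the highest Ghrh value. Promoter windows were from RefSeq (GRCm38.p6). Alternatives were other intensity filters, a second quantile normalization, median centring, array weights, moderation with a trend, least squares without moderation, other probe set rules, and arrays left out. The number of arrays limits the precision. Tables were handled in Python 3.11.15.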

Additional observations from a re-analysis of the deposited data

How the results depend on the processing

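Of the members called, Blm kept its call with every array left out in turn and under every alternative that tested it except ordinary least squares without variance moderation (adjusted p = 0.0671). With the 6 arrays left out in turn, the count called higher was 1 to 2 and the count called lower 0. Dclre1a (adjusted p 0.0577 to 0.103) and Prpf19 (0.0563 to 0.162) lost their calls with each array left out, and Morf4l2 (0.0471 to 0.118) with each except control replicate 3. The call counts with 1 array left out rest on fewer samples. Without GHRH-KO replicate 5, 0.569% of all genes were called higher and 0.762% lower, against 0.786% and 0.97% with all arrays. No such share is given for the other arrays left out, for other intensity filters or without probe sets of certain endings. There, a loss of calls among members cannot be told from a loss over all genes. Least squares gave 0 members higher, with adjusted p of 0.193 for Dclre1a, 0.172 for Prpf19 and 0.139 for Morf4l2, and 0 genes of dividing cells lower. Array weights gave 2 members lower, Lig4 (adjusted p = 0.0306) and Fen1 (adjusted p = 0.0232), and Lig1 higher (adjusted p = 0.0377), with 3 further repair genes lower, 1 p53 target lower, 1 gene of dividing cells higher and a base excision median of -0.19. The weighted fit leans on GHRH-KO replicate 6, which had the largest weight (3.35). Without probe sets of the endings _x_at, _s_at and _a_at, 2 members were higher, Prpf19 reversed to -0.60 (adjusted p = 0.0708), Morf4l2 was 0.05, and 0 genes of dividing cells were lower. Under median centring Prpf19 had an adjusted p of 0.0543 and 1 further repair gene was lower.

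With no intensity filter, 1 further repair gene and 1 p53 target were lower. With the 15000 brightest probe sets, the same counts were 1 and 1, the count of members with separate groups and GHRH-KO higher was 6 of 32 (18.8%, against 13.1% of all genes), and the medians were -0.10 for all members, -0.090 for damage signalling, -0.10 for homologous recombination and -0.40 for base excision repair, over fewer genes. A second quantile normalization gave an end joining median of 0.081. With the probe set of lowest p per gene, the medians were 0.23 for end joining and -0.34 for base excision repair, and 1 further repair gene was lower. With the arrays of control replicate 2 and of GHRH-KO replicate 5 both left out, 1 member was called higher, 16 members had separate groups with GHRH-KO lower (33.3%, against 29.4% of all genes with these arrays), the medians were -0.11 for damage signalling and -0.15 for base excision repair, and 0 genes of dividing cells were lower.

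With 1 array left out, members with separate groups numbered 11 to 15 higher (22.9% to 31.2%, against 15.7% to 19.7% of all genes) and 8 to 12 lower (16.7% to 25% of members, against 19% to 21.3% of all genes), where fewer arrays separate more genes, and the medians ran from 0.018 to 0.091 for all members, -0.020 to 0.36 for damage signalling, 0.022 to 0.080 for homologous recombination, 0.0024 to 0.078 for end joining, -0.34 to -0.21 for base excision repair and -0.18 to -0.035 for nucleotide excision repair. Called counts ran from 0 to 1 in each direction for further repair genes, 0 to 1 lower for genes of dividing cells, and were 0 for p53 targets. Of the values of counts and medians under alternatives, 209 stayed within the spread or within 1.5 times the main count and 47 moved. Where a value moved, the cause was not tested. No paired analysis was possible because the labels used here do not say which mice were littermates of each other. Transcripts near background, such as Blm in control liver, have only a bound on their fold.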
